A study of Drosophila melanogaster with 20 samples.

Results

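Gene expression was compared between dissected brains of Drosophila melanogaster that lack the microRNA miR-34 and brains of a wild-type line, all from flies aged 20 d. The comparison rests on 10 of the 20 arrays in the series, 5 of miR-34 null flies and 5 of wild-type flies at 20 d, chosen by their titles and genotype labels. The null flies carry the line label 0110 and the wild-type flies the line label 5905. The other 10 arrays, 5 of miR-34 null and 5 of wild-type brains at 3 d, served for a comparison of the genotype difference between the ages. Both lines aged without any treatment at 25°C on cornmeal and molasses medium with yeast. Sex and the number of brains per array are not in the labels. Nor do they say that the 5 repeats are separate animals or cultures, and each p-value therefore reflects the spread among these samples alone, which may be technical. Each genotype has a single line label, so the loss of miR-34 and any other difference between the lines cannot be told apart.

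MicroRNAs are short RNAs that guide Argonaute proteins to messenger RNAs with matching sites and lower the output of those messengers. miR-34 is conserved from worms to mammals, and in adult flies it is known to accumulate in the ageing brain and to repress Eip74EF, a transcription factor gene of the steroid hormone ecdysone. Flies without it are known for early decline of brain and lifespan. The arrays listed no probe set of a single gene symbol for mir-34 itself, for Eip74EF or for the eye colour gene w, so the null genotype and this target were not checked here.

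Each array was an Affymetrix Drosophila 2 array with 1 biotin-labelled sample, and the deposited value of a probe set is a linear signal intensity scaled by the authors to a common array mean. Of 18769 probe sets tested, 13647 carried 1 gene symbol and represented 11983 genes, each read from its brightest probe set. Differences are null minus wild type in log2(signal + 16), a scale that compresses changes of dim genes, given ± SE, and a gene is called higher or lower in null at an adjusted p under 0.05 by limma over all probe sets. The 5 null arrays correlated with each other at r from 0.9949 to 0.9984, the 5 wild-type arrays at 0.9975 to 0.9985, and arrays of different genotype at 0.9852 to 0.9886. The median signal of an array was 22.3 ± 0.754 in null and 24.2 ± 0.677 in wild type (SD, n = 5 each, two-sided exact permutation p = 0.00794, the smallest that 5 against 5 arrays allow). The log2 ratios of 3' to 5' control probe sets, a sign of RNA length, were higher in null by 0.045 for GAPDH, 0.078 for eIF-4a and 0.123 for actin (two-sided exact permutation p = 0.19, 0.333 and 0.119). How precisely a value is known depends on the number of arrays and on the spread among them. Repeat 5 of null stood farthest from its group, with a standard deviation of its probe sets around the group mean of 0.138 against 0.072 to 0.104 on the other 9 arrays.

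The genotypes differed widely but mostly by small amounts. In null brains 2338 probe sets were higher and 2863 lower, or 12.5% and 15.3% of those tested. Over single genes, 34.2% were called, 15.1% higher and 19.1% lower. Their median absolute difference was 0.27 on the log2 scale, and 81.6% of them differed by less than 0.5. Differences of at least 2-fold were found in 50 genes that were higher and 138 that were lower, or 0.417% and 1.15% of genes. Among probe sets the 2-fold shares were 0.378% and 0.927%. Calls were more frequent among the 7412 genes above the median signal of all probe sets, at 43.8%, or 20.3% higher and 23.4% lower, with 0.594% and 1.39% at least 2-fold. The 2-fold counts depended on the pseudocount, since 71 higher and 174 lower probe sets became 232 and 488 with a pseudocount of 1 and 27 and 81 with 64. The balance of small calls depended on scaling. Centring each array on its median, which raised the median difference of all probe sets by 0.07, gave 5115 higher and 1832 lower probe sets, so that 73.6% of calls were higher in place of 45.0%. Quantile normalization gave 51.2% higher. Counts over whole gene lists below are therefore followed by those after median centring.

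Several of the largest rises were in genes at or near the floor of the array in wild type. mthl8, a receptor gene of the methuselah family, had signals of 418, 471, 514, 467 and 531 in null brains, against 0.0931, 0.102, 0.0639, 0.0300 and 0.109 in wild-type brains. Its difference was 4.94 ± 0.053 (SE, adjusted p = 6.47e-28), and the values in wild type lay at the floor of the array. CG3088 had signals of 252, 239, 256, 266 and 278 in null brains, against 2.57, 4.01, 1.62, 4.76 and 5.09 in wild-type brains. CG15814 had signals of 460.1, 510.0, 507, 494 and 531 in null brains, against 27.3, 26.1, 30.5, 27.2 and 23.8 in wild-type brains. In both genes every null array exceeded the highest wild-type array many times over. TotC, a Turandot gene whose secreted peptide marks stress responses, had signals of 1269, 1255, 1274, 1222 and 1289 in null brains, against 188, 188, 198, 191 and 191 in wild-type brains, so that it was bright in both genotypes and 6.17-fold higher in null on the log2(signal + 16) scale. The odorant-binding protein gene Obp56g had signals of 91.9, 87.1, 75.2, 86.2 and 93.6 in null brains, against 6.92, 9.92, 7.03, 9.52 and 4.35 in wild-type brains. The remaining genes among the 15 highest were CG12009 (2.55), CG14419 (2.43), CG8620 (2.33), CG8343 (2.26), CG7299 (2.14), CG11425 (1.94), the cuticle protein gene Cpr65Au (1.85), CG15394 (1.83), the cytochrome P450 gene Cyp28d2 (1.70) and the kinetochore gene Mis12 (1.67), as log2 differences. Mis12 had signals of 264, 235, 235, 225 and 113 in null brains, against 63.2, 56.9, 47.9, 57.8 and 46.0 in wild-type brains, and the low null value was that of repeat 5.

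The deepest falls were in genes that were well above the median signal in wild type. CG14125 had signals of 44.7, 42.1, 38.6, 44.8 and 41.3 in null brains, against 1499.9, 1407, 1392, 1375 and 1452 in wild-type brains, a difference of -4.63 ± 0.048 (SE, adjusted p = 5.01e-28). Cyp4g1, the cytochrome P450 that completes cuticular hydrocarbons in oenocytes, had signals of 81.6, 98.5, 118, 87.9 and 97.2 in null brains, against 1679, 1577, 1522, 1618 and 1606 in wild-type brains. CG15531, a gene of the fatty acid desaturase family, had signals of 1.64, 3.11, 1.29, 1.504 and 0.651 in null brains, against 161, 206, 204, 197 and 180.5 in wild-type brains. No null array of these genes came near a wild-type array. Meics, which encodes a protein of the meiotic spindle, had signals of 1.88, 0.420, 1.71, 1.14 and 4.57 in null brains, against 164, 163, 180.3, 168 and 171 in wild-type brains. The others of the 15 lowest were CG6912 (-4.07), CG5506 (-3.69), CG7910 (-3.32), CG43085 (-3.32), the elongase family gene CG16904 (-3.31), the chitin deacetylase gene Cda9 (-3.30), CG11672 (-3.29), Sgp (-3.19), CG15043 (-3.09), CG43673 (-3.05) and the chitinase gene Cht8 (-2.81). All 30 genes at the extremes were chosen among those whose 5 null arrays all lay on 1 side of the 5 wild-type arrays, true of 26.3% of all genes.

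**Figure D1:**
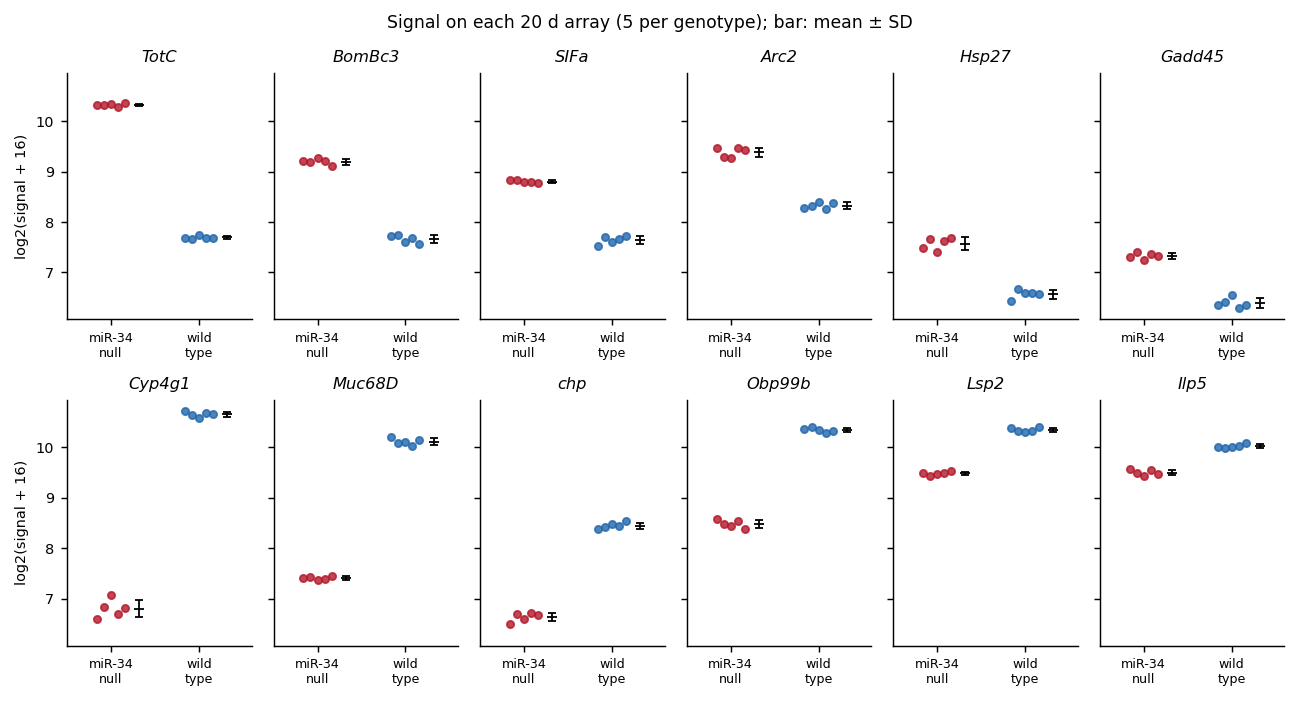
Signal of 12 genes on the 10 arrays of 20 d, as log2(signal + 16). Each point is 1 array, miR-34 null on the left in red and wild type on the right in blue, and the bar beside them is the mean ± SD of 5 arrays. The upper row shows genes higher in null, led by TotC, and the lower row genes lower in null, led by Cyp4g1. The groups do not overlap in any of the 12.

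Light detection by fly photoreceptors begins with rhodopsin, which acts through a G protein and phospholipase C to open the TRP and TRPL channels on the rhabdomere, the stacked membrane of the cell. Most measured genes of this machinery were lower in null brains. Of 36 of 50 listed genes with a probe set, 22 were lower and 2 higher, with a median difference of -0.32 against 0.00 over all genes. After median centring 20 were lower and 5 higher. On the deposited scaling 66.7% were called, against 34.2% of all genes and 43.8% of those above the median signal. The labels say dissected brain, and the part of attached eye tissue in these values was not tested. In bulk samples like these, fewer cells of a type and less RNA per cell cannot be told apart, here and in every family below.

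Within the cascade the channel and scaffold group was lower as a whole. All 4 of its measured genes were called lower, with a median of -1.61. trpl had signals of 164, 197, 183, 183 and 197 in null brains, against 576, 563, 609, 589.5 and 623 in wild-type brains. trp had signals of 415, 387, 396, 385 and 401 in null brains, against 842, 726, 750.4, 721 and 793 in wild-type brains. inaD, the scaffold that holds channel and phospholipase together, had signals of 96.7, 133, 145, 117 and 132 in null brains, against 412, 383, 412, 415 and 435 in wild-type brains. In each of these 3 the null arrays lay below the lowest wild-type array. rtp, which encodes retinophilin, a partner of the rhabdomere myosin NINAC, had signals of 235, 262, 262, 257 and 268 in null brains, against 921, 896, 895, 852 and 892 in wild-type brains. The differences of these 4 genes ran from -0.92 for trp to -1.73 for rtp, with adjusted p at or below 1.55e-12.

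The structural genes chp, for the membrane protein chaoptin that holds the rhabdomere together, and Cpn, for the calcium-binding calphotin, were lower as well. chp had signals of 75.1, 87.6, 81.4, 89.8 and 85.9 in null brains, against 317, 326, 342, 333 and 354 in wild-type brains. Cpn had signals of 87.9, 98.8, 83.3, 89.5 and 95.5 in null brains, against 263, 263, 313, 266 and 289 in wild-type brains. Enzymes and carriers of the visual chromophore were called lower in all 6 measured genes. Pdh, a retinol dehydrogenase of pigment cells, had signals of 289, 286, 290.3, 307 and 285 in null brains, against 817, 769.6, 758, 782 and 819 in wild-type brains, while ninaB, the enzyme that splits carotenoids, was lower only slightly (-0.22 ± 0.039, adjusted p = 6.96e-05). pinta (-0.75), ninaD (-0.66) and ninaG (-0.50) lay between them, and santa-maria (-0.20) differed least.

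Signalling proteins of the cascade were divided. The G protein beta subunit gene Gbeta76C was lower at -0.87 and the eye protein kinase C gene inaC at -0.67, whereas the alpha subunit gene Galphaq was at 0.08 ± 0.042 (adjusted p = 0.185) and the phosphatase gene rdgC was higher by 0.21 ± 0.044. Of the arrestins, which end the response, Arr1 had signals of 1187, 1158, 1187, 1250.4 and 1187 in null brains, against 1845, 1807, 1676, 1754 and 1843 in wild-type brains, but Arr2 had signals of 2615, 2189, 2041, 2203 and 2119.5 in null brains, against 2623, 2412, 2278, 2430.2 and 2587 in wild-type brains. The groups of Arr1 were separate, and those of Arr2 overlapped (difference -0.15 ± 0.058, adjusted p = 0.0682). Genes for the histamine that photoreceptors release were lower for synthesis (Hdc, -0.42) and recycling (e, -0.64, and CarT, -0.48), and the histamine receptor gene ort, which acts in the neurons that receive the signal, was at 0.14 ± 0.058 (adjusted p = 0.0726). The 1 rhodopsin gene with its own single-symbol probe set was Rh7, an opsin of brain neurons, and it went the other way. It had signals of 127, 152, 158, 139.5 and 147 in null brains, against 49.98, 56.9, 67.7, 66.3 and 55.3 in wild-type brains (difference 1.10 ± 0.069), although its dimmer probe set differed by only 0.02.

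Screening pigment genes were less uniform. se, needed for the red drosopterins, had signals of 18.1, 18.8, 15.1, 17.3 and 19.9 in null brains, against 165, 157, 141, 147 and 143 in wild-type brains, a clear separation of the genotypes. st, a transporter of the brown ommochromes, had signals of 6.33, 5.91, 7.17, 8.36 and 5.11 in null brains, against 26.5, 22.3, 28.8, 34.1 and 29.7 in wild-type brains and was dim in both. Rab32, which moves pigment granules, was lower at -0.76, and p was higher by 0.20. In all, 6 of 22 pigment genes were lower and 2 higher, with a median of -0.01, and median centring gave 5 lower and 6 higher. The called share, 36.4%, lay near the 34.2% of all genes. Of corneal and cuticle genes the lens protein gene Cpr72Ec had signals of 124, 124, 112, 114 and 136 in null brains, against 632, 585, 569, 556 and 567 in wild-type brains, whereas retinin, another corneal protein gene, was higher by 0.35 ± 0.048. Most of the 107 genes of that list were dim, 12 lying above the median signal of all probe sets.

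Oenocytes, cells under the abdominal cuticle, make the hydrocarbons that coat a fly, and fat body, which also lies around the brain, stores lipid and protein. Genes of hydrocarbon synthesis were called lower in 12 of 17 and higher in none, with a median of -0.37. Together with fatty acid synthesis the list had 4 higher and 16 lower, or 7 higher and 13 lower after median centring. Its called share was 71.4%, against 34.2% of all genes. Besides Cyp4g1, CG15531 and CG16904, the elongase gene bond was lower (-0.37 ± 0.040), and FarO, a fatty acyl reductase gene of oenocytes, was dim with signals of 0.245, 1.79, 0.794, 1.38 and 0.296 in null brains, against 6.45, 9.20, 5.27, 7.61 and 7.71 in wild-type brains. General fatty acid synthesis did not follow: FASN1, the main fatty acid synthase gene, was higher by 0.21 ± 0.036, while FASN2 was lower at -0.81 and FASN3 at -0.33. Elovl7, another elongase family gene, had signals of 97.0, 125, 117, 112 and 134 in null brains, against 37.6, 37.0, 40.1, 47.4 and 43.0 in wild-type brains. The desaturase gene Desat1 was at 0.10 ± 0.047 and was not called (adjusted p = 0.129).

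Among fat body genes the storage protein gene Lsp2 had signals of 704, 679, 696, 706 and 723 in null brains, against 1318, 1260.0, 1247, 1272 and 1341 in wild-type brains. Yp3, a yolk protein gene, had signals of 10.8, 9.70, 14.5, 9.999 and 16.01 in null brains, against 59.4, 58.0, 56.3, 59.9 and 58.2 in wild-type brains. Obp99b, an odorant-binding protein gene, had signals of 366, 339, 329.6, 356 and 319 in null brains, against 1295, 1338, 1286, 1238 and 1273 in wild-type brains. Each of these was lower on every null array. Yp1 was at -0.47 and was not called (adjusted p = 0.0563). In lipid release bmm, the main triglyceride lipase gene, was higher (0.45 ± 0.039). Of 26 fat body genes 9 were lower and 4 higher, and 7 higher and 5 lower after median centring. fit, a secreted protein gene of head fat body that is female-biased, was lower at -1.04. It shares the sex composition list with Yp3 and Obp99b, where 4 of 10 were lower and none higher, or 2 higher and 3 lower after median centring. The 40.0% called there compares with 34.2% of all genes and 43.8% of those above the median signal. That list does not divide its genes by the sex they favour, so these counts give no direction for sex. The part of sex or of attached fat tissue in these differences was not tested.

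Chitinases, chitin deacetylases and mucins, which build and turn over the lining of the foregut and the matrix of the gut, held some of the deepest falls. Of 53 such genes 16 were lower, 7 of them by at least 2-fold, and 2 were higher, or 11 higher and 13 lower after median centring, with a median of -0.02 and 18 genes above the median signal. The called share on the deposited scaling lay near the 34.2% of all genes. It was the depth of the falls that set the list apart, since 1.15% of all genes were at least 2-fold lower. Muc68D, a mucin gene, had signals of 154, 156, 149, 152 and 159 in null brains, against 1161, 1074, 1088, 1027 and 1119.9 in wild-type brains. Cda9 had signals of 5.63, 9.66, 11.0, 7.68 and 6.9997 in null brains, against 220.3, 247, 223, 221 and 197 in wild-type brains. Cht4 had signals of 11.0, 10.47, 9.15, 11.5 and 15.1 in null brains, against 169, 174, 179, 156 and 174 in wild-type brains. Digestive genes showed no fall of that size. Of 51 such genes 9 were higher and 11 lower, or 14 higher and 2 lower after median centring, with no 2-fold difference. Their called share was 39.2%, against 34.2% of all genes. Only 14 of the 51 lay above the median signal, and a gene near the floor in wild type cannot show a large fall. Jon65Aiii, a Jonah protease gene, had signals of 35.1, 34.03, 25.3, 30.5 and 29.2 in null brains, against 17.3, 18.05, 13.7, 13.5 and 16.7 in wild-type brains. These families mark tissue beyond the brain, and their part in the result was not tested.

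**Figure D2:**
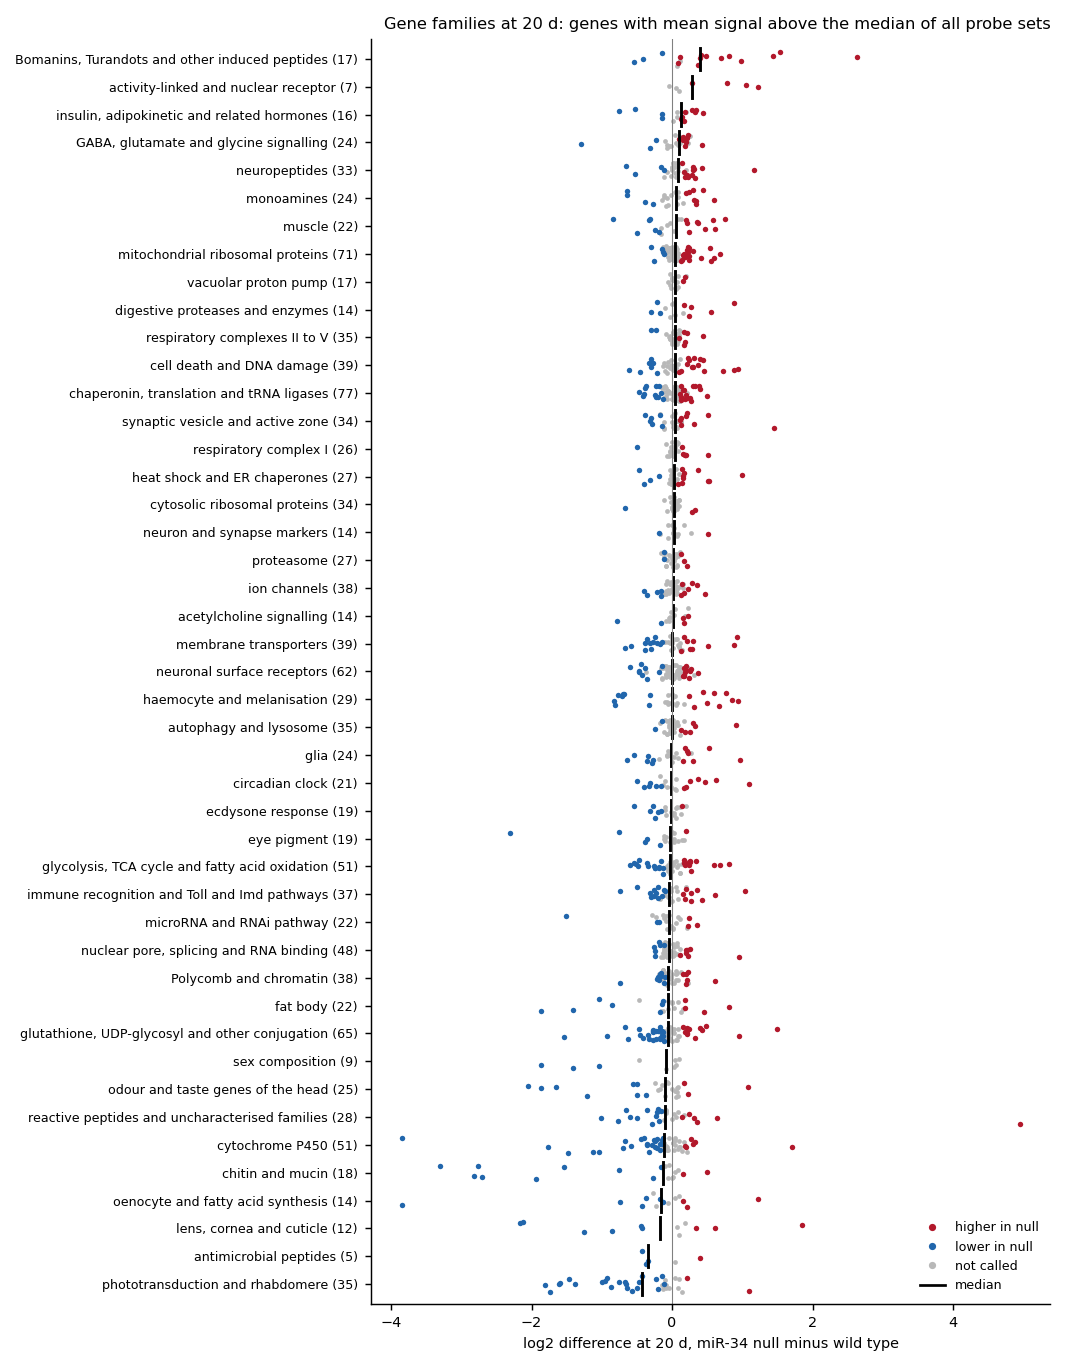
Log2 difference at 20 d, miR-34 null minus wild type, for the members of 45 gene lists whose mean signal over all arrays lies above the median of all probe sets, with the number of genes in parentheses. Each point is 1 gene, red if called higher in null, blue if called lower and grey if not called, and the black bar is the median. Phototransduction genes lie lowest by median and the Bomanin and Turandot list highest, while most lists centre near 0 with calls on both sides.

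Immune genes moved in both directions. The Toll pathway of flies induces Bomanins and drosomycin, the Imd pathway induces diptericins, and the JAK-STAT pathway induces Turandots. Of the 9 Bomanin genes with a probe set 8 were higher in null and none lower, with a median of 0.48. BomBc3 had signals of 579, 566, 601, 576 and 536 in null brains, against 196, 199, 179, 189 and 172 in wild-type brains. BomS2 had signals of 660.0, 761, 694, 759.7 and 765 in null brains, against 339, 418, 450.3, 399 and 436 in wild-type brains. BomT2 had signals of 263, 282, 291, 263 and 279.9 in null brains, against 114, 141, 140.0, 147 and 119 in wild-type brains. In all 3 every null array was above every wild-type array. BomBc2 was higher by 0.70, and BomS6, the 1 Bomanin gene not called, was at 0.12 ± 0.056 (adjusted p = 0.145). Closely related Bomanin genes may share probes, so these members are not independent. Listericin, an induced antibacterial gene, had signals of 215, 186, 202, 176 and 225 in null brains, against 71.4, 56.1, 69.8, 67.4 and 54.8 in wild-type brains. edin, which is induced by infection, had signals of 36.6, 50.1, 41.4, 38.8 and 30.7 in null brains, against 14.0, 16.4, 20.5, 13.3 and 12.1 in wild-type brains. Induced peptides beside Bomanins and Turandots were nonetheless divided, with 4 higher and 4 lower of 9 and a median of 0.07. Of 5 Turandot genes TotC was higher and 4 were not called. The whole list of 23 genes had 13 higher and 4 lower, or 16 higher and 3 lower after median centring. Its called share was 73.9%, against 34.2% of all genes.

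Of 12 antimicrobial peptide genes 5 were lower and 1 higher, the same counts as after median centring. Drs, drosomycin, had signals of 200.6, 209, 218, 221 and 232 in null brains, against 285, 287, 296, 306 and 302 in wild-type brains, and Drsl5, a relative of it, was lower at -0.35. Def, the defensin gene, was lower at -0.37 at dimmer signals. Mtk, metchnikowin, had signals of 371, 398, 391, 395 and 396 in null brains, against 271, 293, 294, 300.2 and 312 in wild-type brains and was the gene called higher. DptB, a diptericin, had signals of 319.7, 377, 479, 347 and 426 in null brains, against 389, 433, 285, 442 and 343 in wild-type brains, and its groups overlapped fully (difference 0.04 ± 0.15, adjusted p = 0.884). Among regulators, pirk, an inhibitor of Imd signalling that is itself induced, had signals of 159, 129, 148, 148 and 158 in null brains, against 63.2, 56.5, 67.7, 67.7 and 65.7 in wild-type brains. Rel, the Imd transcription factor gene, was higher by 0.26 ± 0.042, and the sensors PGRP-LE by 0.35 and PGRP-LB, a peptidoglycan-degrading enzyme gene, by 0.27. In the Toll cascade the protease gene SPE was higher by 0.62 and grass lower at -0.74. Over 43 recognition and pathway genes 9 were higher and 14 lower, and 13 higher and 8 lower after median centring. On the deposited scaling 53.5% of them were called. By group, recognition genes were higher in 5 and lower in 2 of 9. Imd pathway genes went mostly the other way from pirk and Rel, with 2 higher and 5 lower of 13. Toll pathway genes were higher in 2 and lower in 5 of 15, and JAK-STAT genes higher in 0 and lower in 2 of 6.

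Haemocyte and melanisation genes also split, with 11 higher and 11 lower of 45, or 16 higher and 10 lower after median centring. Their called share was 48.9%, against 34.2% of all genes and 43.8% of those above the median signal. Col4a1, the basement membrane collagen gene, had signals of 875, 813, 783, 824 and 844 in null brains, against 513, 455, 527, 439 and 481 in wild-type brains, and the scavenger receptor gene Sr-CI was higher by 0.60. The phagocytic receptor family gene NimB2 had signals of 289.6, 276, 295, 295 and 312 in null brains, against 549, 482, 537, 514 and 545 in wild-type brains, and the prophenoloxidase genes PPO1 (-0.77) and PPO2 (-0.70), which make melanin, were lower. Hml, a defining haemocyte marker, was at -0.07 ± 0.091 and not called (adjusted p = 0.653).

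Chaperone and damage genes held a few clear rises. The small heat shock protein gene Hsp27 had signals of 162, 187, 153, 182 and 189 in null brains, against 70.0, 85.8, 80.7, 80.3 and 79.0 in wild-type brains. Hsp26 had signals of 158, 187, 181, 191 and 204 in null brains, against 121, 114, 133, 135 and 112 in wild-type brains. Their groups were separate, at differences of 1.00 ± 0.061 and 0.52 ± 0.059. l(2)efl, another small heat shock gene, was at -0.03 ± 0.094 and was not called (adjusted p = 0.858). Hsp68 was higher by 0.51, Hsp110, a co-chaperone gene, lower at -0.39, and the endoplasmic chaperone gene Hsc70-3, among the brightest on the array, was at -0.02 ± 0.066 (adjusted p = 0.88). Of 32 chaperone genes 10 were higher and 4 lower, or 13 higher and 3 lower after median centring. The called share, 43.8%, compares with 34.2% over all genes and 43.8% among all genes above the median signal.

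Gadd45, a stress sensor gene of DNA damage, had signals of 141, 153, 137, 148 and 144 in null brains, against 65.4, 69.6, 78.5, 62.4 and 66.1 in wild-type brains. The cell death genes grim and skl, whose products block the inhibitor of caspases, were higher. grim had signals of 91.8, 126, 151, 119 and 91.6 in null brains, against 47.8, 58.6, 65.6, 53.1 and 48.4 in wild-type brains, and skl was higher by 0.45 ± 0.059. Dronc, the initiator caspase gene, had signals of 122, 123, 127, 129.8 and 121 in null brains, against 74.3, 71.7, 72.8, 55.4 and 71.9 in wild-type brains. mre11, of DNA double-strand break repair, was higher by 0.43 and Irbp18, an inverted repeat-binding protein gene, by 0.40, and p53 was lower at -0.31. Both fly Bcl-2 family genes, Buffy (-0.62) and Debcl (-0.46), were lower. In the whole list 15 of 43 genes were higher and 8 lower, or 18 higher and 6 lower after median centring. The called share was 53.5%, against 34.2% of all genes and 43.8% of those above the median signal. Of 4 death inducer genes 2 were higher and 1 lower, and of 19 damage response genes 5 were higher and 5 lower. Caspases and their regulators had 3 higher and 2 lower of 10, and JNK stress genes 5 and 0 of 10. The JNK targets puc (0.23) and kay (0.28), which encodes Fos, were among those higher.

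Of 8 measured genes that neurons switch on when they are active, 4 were higher in null brains and none lower, with a median of 0.19, and 6 were higher and 0 lower after median centring. Of the 8, 7 lay above the median signal, where 43.8% of all genes were called, against 34.2% of genes at any signal. The called share of this short list on the deposited scaling was therefore near that of genes of similar brightness. Arc2, a relative of the mammalian synaptic gene Arc, had signals of 690.2, 606, 604, 690.1 and 670.0 in null brains, against 296, 302, 321, 290.0 and 319 in wild-type brains. Hr38, the fly NR4A receptor gene and a marker of recent neural activity, had signals of 259, 346, 402, 290.4 and 341 in null brains, against 141, 130.3, 119, 144 and 118 in wild-type brains, and its dimmer probe set was higher by 0.71. sr, the fly Egr gene, had signals of 209, 210.4, 235, 204 and 171 in null brains, against 107, 112, 119, 115 and 110.1 in wild-type brains. The other was kay, named above. The other probe set of kay differed by 0.11 and was not called. The adjusted p of the 4 were at or below 0.00114, the highest being that of kay.

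Pan-neuronal genes were rarely called. elav, an RNA-binding protein gene that defines neurons, had signals of 1189.5, 1096, 1133, 984 and 779 in null brains, against 1149, 982, 1094, 942 and 915 in wild-type brains, and the groups overlapped. Of 14 pan-neuronal markers 1 was higher, Nrg at 0.52, and 1 lower, with a median of 0.02. After median centring 3 were higher and 0 lower. On the deposited scaling 14.3% were called, against 34.2% of all genes. Of the other probe sets of Nrg 1 differed by 0.49 and 1 by 0.10. Single genes of transmission differed much more. Syt7, a calcium sensor of vesicle release, had signals of 719, 781, 746, 761 and 789.7 in null brains, against 259, 283, 288, 284 and 223 in wild-type brains, a difference of 1.46 ± 0.065 in a list of 35 vesicle and active zone genes with 8 higher and 6 lower, or 15 higher and 4 lower after median centring. That list had 40.0% called, against 34.2% of all genes and 43.8% of those above the median signal. The chaperone gene Csp, which protects release sites, was higher by 0.31, and the adhesion gene Nlg2 was lower at -0.38, with other probe sets at -0.63 (called) and -0.09 (not called).

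In transmitter systems single genes differed in both directions. SIFa, a neuropeptide made by a small set of neurons, had signals of 442, 437, 425, 427 and 421 in null brains, against 168, 192, 179, 187 and 195 in wild-type brains, the only neuropeptide gene with a 2-fold rise. Capa (0.43) and Orcokinin (0.30) were higher, CCAP (-0.65), CCHa1 (-0.53) and the eclosion hormone gene Eh (-0.96) were lower. Of 41 peptide genes 13 were higher and 6 lower, or 19 higher and 4 lower after median centring. Their called share was 46.3%, against 34.2% of all genes and 43.8% of those above the median signal. Among monoamine genes the dopamine transporter gene DAT had signals of 371, 413, 375, 376 and 358 in null brains, against 204.97, 261, 261, 229 and 275 in wild-type brains. The vesicular transporter family gene prt (0.31) and Tbh, for octopamine synthesis (0.43), were higher, and the octopamine receptor gene Octbeta3R (-0.64) was lower by its brightest probe set, while its others, from -0.12 to -0.09, were not called. Tbh arrays of the genotypes overlapped, and its adjusted p was 0.00787.

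GABA and glutamate genes included a receptor that was higher and a degrading enzyme that was lower. Rdl, the GABA-gated chloride channel gene, had signals of 854, 762, 745, 839.7 and 828 in null brains, against 682, 552, 596, 577 and 586 in wild-type brains. Gabat, the transaminase gene that breaks down GABA, had signals of 59.4, 63.6, 47.6, 44.0 and 46.4 in null brains, against 114, 181, 174, 135 and 155 in wild-type brains. gb, an amino acid exchanger gene that sets extracellular glutamate, had signals of 804, 768, 738, 885 and 775 in null brains, against 432, 418, 449, 382 and 441 in wild-type brains, and the glial transporter gene Eaat2 was lower at -0.31. For acetylcholine, the receptor subunit gene nAChRalpha3 was higher by 0.23. Another subunit gene, nAChRbeta3, had signals of 179, 184, 179, 177 and 186 in null brains, against 332, 313, 339, 312 and 317 in wild-type brains. Of 15 cholinergic genes 3 were higher and 2 lower, or 4 higher and 1 lower after median centring. Ion channel genes were called in 7 higher and 5 lower of 41, or 10 higher and 2 lower after median centring. The called shares of these lists, 33.3% and 29.3%, lay below the 34.2% of all genes and the 43.8% of those above the median signal. The potassium channel gene Irk1 was at 0.46 and tipE, a sodium channel subunit gene, at 0.35. Slob, a binding partner of a potassium channel, was at -0.40. The other probe sets of Irk1 and Slob differed by 0.02 and -0.12 and were not called.

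Of 13 genes of barrier and ensheathing glia 5 were higher and 1 lower, and of 15 pan-glial and astrocyte genes 2 were higher and 5 lower. Over both groups together 7 higher and 6 lower became 10 higher and 6 lower after median centring. The called share of both was 46.4%, against 34.2% of all genes and 43.8% of those above the median signal. Nrx-IV, a core component of septate junctions, had signals of 367, 469.8, 439, 438 and 512 in null brains, against 191, 208, 233, 238 and 220.2 in wild-type brains, and Gli, of the junctions where 3 cells meet, had signals of 182, 208, 207, 194 and 206 in null brains, against 127, 129, 134, 135 and 141 in wild-type brains. The barrier drug transporter gene Mdr65, however, was lower at -0.35, as was the astrocyte gene alrm, which had signals of 1387, 1325, 1256, 1341 and 1392 in null brains, against 1726, 1707, 1632, 1723 and 1741 in wild-type brains. axo, of the neurexin superfamily, was lower at -0.54.

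Of 22 clock genes 7 were higher and 6 lower, and of 18 insulin and adipokinetic genes 8 and 4. After median centring these were 7 and 5 for the clock and 11 and 2 for the hormones. On the deposited scaling 59.1% and 66.7% were called, against 34.2% of all genes and 43.8% of those above the median signal. In the clock itself Clk (-0.50), tim (-0.33) and cry (-0.32) were lower, and cwo (0.47), a repressor gene, higher, although a dimmer probe set of cwo differed by 0.15 and was not called. The time of day of dissection is not in the labels, and its part in these differences was not tested. The insulin-producing cells of the brain make Ilp2 and Ilp5. Ilp5 had signals of 746, 704, 673, 734 and 694 in null brains, against 1017, 999, 1020.0, 1022 and 1072 in wild-type brains. Ilp2 had signals of 1108, 1007, 998, 1088 and 1101 in null brains, against 1224, 1172, 1147, 1219.9 and 1124 in wild-type brains. Ilp5 groups were separate and Ilp2 groups overlapped, with differences of -0.52 ± 0.036 and -0.15 ± 0.051. The call of Ilp2 was lost after median centring (-0.08) and without repeat 2 or 3 of null (-0.13 each) or repeat 1, 2 or 4 of wild type (-0.14, -0.15 and -0.14). The insulin receptor gene InR was lower at -0.76, and its downstream kinase gene S6k (0.44) and gig, which encodes the inhibitor Tsc2 of that branch (0.33), were higher. Akh, the adipokinetic hormone gene of the corpora cardiaca, had signals of 1495, 1248, 1209, 1392 and 1233 in null brains, against 1139, 1074, 1040.2, 1018 and 1081 in wild-type brains.

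Detoxification genes leaned lower on the deposited scaling. Cytochrome P450 and partner genes were lower in 37 and higher in 11 of 89, against 19.1% lower and 15.1% higher over all genes, with 21 higher and 25 lower after median centring. Cyp28d2 had signals of 91.9, 88.5, 93.2, 92.2 and 100.2 in null brains, against 18.2, 17.9, 17.5, 17.0 and 17.5 in wild-type brains, the only P450 gene with a 2-fold rise, and Cyp4e1 had signals of 15.8, 18.9, 14.0, 19.5 and 14.9 in null brains, against 90.7, 94.4, 94.1, 94.5 and 102 in wild-type brains. Glutathione transferase genes were lower in 15 and higher in 8 of 36. GstT4 had signals of 219.6, 192, 204, 202 and 225 in null brains, against 401, 423, 414, 389 and 415 in wild-type brains. GstD9 had signals of 1182, 1109, 1091, 1149 and 1142 in null brains, against 1559, 1559, 1490.0, 1488 and 1509 in wild-type brains. For the whole conjugation list the balance of 17 higher and 33 lower turned to 26 higher and 21 lower after median centring. Its called share was 49.0%, against 34.2% of all genes and 43.8% of those above the median signal. Neighbouring sugar transferase genes differed in opposite directions, Ugt35C1 at -1.54 ± 0.053 and Ugt35A1 by 0.96 ± 0.055. The carboxylesterase gene alpha-Est2 had signals of 110.3, 112, 128, 115 and 136 in null brains, against 26.7, 35.1, 33.5, 33.6 and 33.4 in wild-type brains.

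In several complexes of core cellular machinery calls were fewer than the 34.2% of all genes, although this depended on scaling. The vacuolar proton pump had 2 of 30 genes called, the cytosolic ribosome 4 higher and 2 lower of 41, the proteasome 5 and 3 of 40, and respiratory complexes II to V 8 and 2 of 47. After median centring the pump had 10 higher and 0 lower, the cytosolic ribosome 6 and 2, the proteasome 11 and 0, and complexes II to V 18 and 1. Mitochondrial ribosomal proteins, with 36.6% called, were higher in 21 and lower in 5 of 71, a balance of 31 and 2 after median centring. mRpL50 had signals of 624.9, 579.8, 604, 621 and 580.0 in null brains, against 359.7, 370.0, 369, 373 and 368 in wild-type brains, and mRpS26 was higher by 0.60. Complex I had 7 higher of 32, led by ND-B18 at 0.51, and 1 lower, ND-13B at -0.51, or 12 higher and 1 lower after median centring. The glycolytic gene Pgk had signals of 905, 847, 815, 843 and 946 in null brains, against 580.0, 545, 575, 592 and 568.2 in wild-type brains. Gnmt, whose enzyme consumes the methyl donor S-adenosylmethionine, had signals of 1357, 1223, 1204, 1276 and 1307 in null brains, against 761, 705, 699, 666 and 752 in wild-type brains, and Nmdmc, a mitochondrial folate enzyme gene, was higher by 0.68. The lysosomal gene Cln7 was higher by 0.91, and of 38 autophagy and lysosome genes 6 were higher and 2 lower, or 11 higher and 1 lower after median centring. That list had 21.1% called on the deposited scaling, below the 34.2% of all genes.

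Regulators of chromatin and small RNA were called about as often as all genes. Su(z)12, of the Polycomb complex PRC2, had signals of 471, 500.5, 479, 461 and 432 in null brains, against 300.1, 310.0, 293, 306 and 299 in wild-type brains, while the insulator gene su(Hw) was lower at -0.74. Of 29 genes of microRNA and RNA interference pathways 4 were higher and 6 lower, or 6 higher and 3 lower after median centring, and of 40 Polycomb and chromatin genes 6 were higher and 9 lower, or 10 higher and 3 lower after median centring. The called shares, 34.5% and 37.5%, lay near the 34.2% of all genes. tut, a double-stranded RNA-binding protein gene, had signals of 40.0, 39.9, 38.2, 40.6 and 45.8 in null brains, against 135, 144, 142, 162 and 149 in wild-type brains. Ecdysone response genes were lower in 8 and higher in 1 of 36, which median centring turned to 5 lower and 12 higher. The called share of this list was 25.0%, below the 34.2% of all genes. Within it Eip93F was lower at -0.27, a call lost after median centring (-0.20) and without repeat 4 of null (-0.25), repeat 5 of null (-0.19) or repeat 1 of wild type (-0.22). The receptor gene EcR was at 0.19 ± 0.089 and not called (adjusted p = 0.122). Outside it, spok, which encodes an enzyme of ecdysone synthesis, had signals of 33.3, 30.4, 36.2, 30.1 and 27.99 in null brains, against 7.03, 7.93, 10.2, 9.74 and 9.91 in wild-type brains.

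Genes of muscle and of the chemosensory organs mark tissue at the edge of a brain dissection. Muscle genes were higher in 9 and lower in 6 of 25, or 10 higher and 5 lower after median centring. Mlp60A, a LIM protein gene, had signals of 193, 173, 194, 199.7 and 210.3 in null brains, against 109.7, 107, 114, 103.5 and 105 in wild-type brains, whereas the troponin C gene TpnC73F had signals of 133, 145, 146, 140.2 and 137 in null brains, against 253, 270.4, 266, 255.2 and 273 in wild-type brains. The dimmer probe sets of Mlp60A (0.16 and 0.07) and of TpnC73F (-0.02) were not called. Odour and taste genes were lower in 39 and higher in 12 of 230, of which 25 were above the median signal, and the balance after median centring was 29 lower and 54 higher. Their called share on the deposited scaling was 22.2%, below that of all genes. The receptor gene Ir76a had signals of 113, 105, 111, 93.1 and 102 in null brains, against 507, 444, 502, 462 and 494 in wild-type brains, and Obp49a, an odorant-binding protein gene, had signals of 319.6, 276, 286, 307 and 322 in null brains, against 126, 133, 136, 134 and 145 in wild-type brains. The part of attached tissue was not tested.

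Whether the genotype difference changed between the ages was tested by the interaction, the difference at 20 d minus that at 3 d. It was called for 10.2% of probe sets and 13.1% of genes. The count depended on scaling, with 1910 probe sets called as deposited and 5562 after median centring, and the counts below are on the deposited scaling. The 3 d comparison uses other arrays but the same estimate of the spread. The labels do not say whether the samples of the ages come from separate cultures. Of the 4101 genes called at 20 d, 1788 were called in the same direction at 3 d, 248 in the opposite direction and 2065 were not called at 3 d. For the 50 genes at least 2-fold higher, 39 were called higher at 3 d too and 17 were 2-fold at both ages. For the 138 at least 2-fold lower, 83 were called lower at 3 d, 40 were called higher at 3 d and 45 were 2-fold at both ages. The interaction was called for 39 of the 50 and 109 of the 138.

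**Figure D3:**
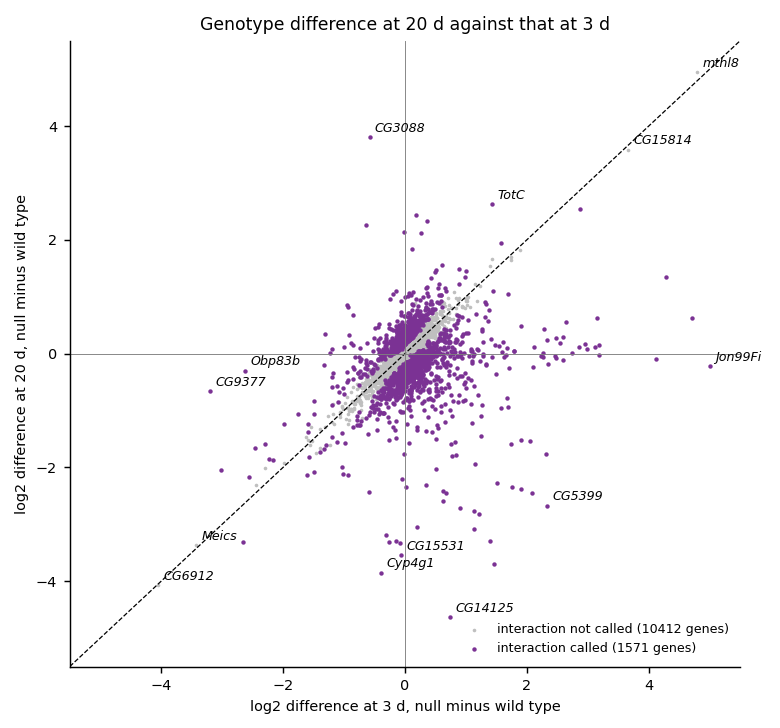
Log2 difference between miR-34 null and wild type at 20 d (vertical) against that at 3 d (horizontal), 1 point per gene, 11983 genes. Purple genes had a called interaction (1571 genes) and grey genes did not, and the dashed line marks equal differences. mthl8, CG15814 and CG6912 lie on the line, CG14125, Cyp4g1 and CG15531 far below it, and Jon99Fi near 0 at 20 d only.

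Several of the deepest falls at 20 d were small or absent at 3 d. Cyp4g1 at 3 d had signals of 45.6, 40.0, 45.5, 47.7 and 59.6 in null brains, against 59.6, 79.7, 74.4, 64.4 and 59.8 in wild-type brains, so that its difference was -0.39 ± 0.081 at 3 d and the interaction -3.46 ± 0.11. CG15531 stood at 0.396 ± 0.307 in null and 1.12 ± 0.677 in wild type at 3 d (SD, n = 5 each), and was bright in 20 d wild type alone. Others turned over. CG14125 at 3 d had signals of 1694, 1655, 1559, 1551 and 1383 in null brains, against 943, 858, 939.7, 930.0 and 979.9 in wild-type brains, higher in null, and at 20 d it was far lower (interaction -5.37 ± 0.068, adjusted p = 1.02e-25). CG5506 had an interaction of -5.15 ± 0.12, CG5399 of -5.0 ± 0.072, CG11672 of -4.69 ± 0.092 and Muc68D of -3.61 ± 0.070, each with a higher level in null than in wild type at 3 d. At 20 d Jon99Fi, a digestive protease gene, averaged 1.17 ± 0.972 in null brains, against 3.99 ± 0.587 in wild-type brains, and at 3 d it averaged 533 ± 65.7 in null and 1.06 ± 0.573 in wild type (SD, n = 5 each). Its interaction was -5.22 ± 0.093, and its small call at 20 d was lost after median centring (-0.15) and with a pseudocount of 64 (-0.06).

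Rises that grew with age were fewer, as were 2-fold rises as a whole. By a called interaction the difference was larger at 20 d for 35 of the 50 genes at least 2-fold higher. The same held for 98 of the 138 at least 2-fold lower. CG3088 averaged 0.882 ± 0.587 in null and 9.25 ± 0.905 in wild type at 3 d and had the largest positive interaction of the genes called at 20 d (4.39 ± 0.080). Arc2 (-0.20 ± 0.048 at 3 d, interaction 1.26 ± 0.068), Gadd45 (-0.07 ± 0.060, interaction 1.00 ± 0.085), Hsp27 (0.01 ± 0.061, interaction 0.99 ± 0.086) and Gnmt (-0.94 ± 0.040, interaction 1.76 ± 0.057) were level or lower in 3 d null. SIFa was already higher at 3 d (0.35 ± 0.040), and its difference was larger at 20 d (interaction 0.81 ± 0.056, adjusted p = 5.04e-11). The odorant-binding protein gene Obp83b and CG9377 also had positive interactions (2.32 ± 0.091 and 2.53 ± 0.061), and both were far lower in null at 3 d and less so at 20 d. CG14419 (2.25 ± 0.10) and CG8343 (2.90 ± 0.095) completed the largest. By contrast mthl8 (4.79 ± 0.053 at 3 d), CG15814 (3.65 ± 0.062), CG6912 (-4.06 ± 0.059) and Meics (-3.42 ± 0.065) differed at 3 d much as at 20 d, and no interaction was called for them, at 0.15 ± 0.074, -0.07 ± 0.087, -0.02 ± 0.084 and 0.05 ± 0.092. chp was lower at both ages, slightly more at 20 d (interaction -0.24 ± 0.076, adjusted p = 0.0455).

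**Figure D4:**
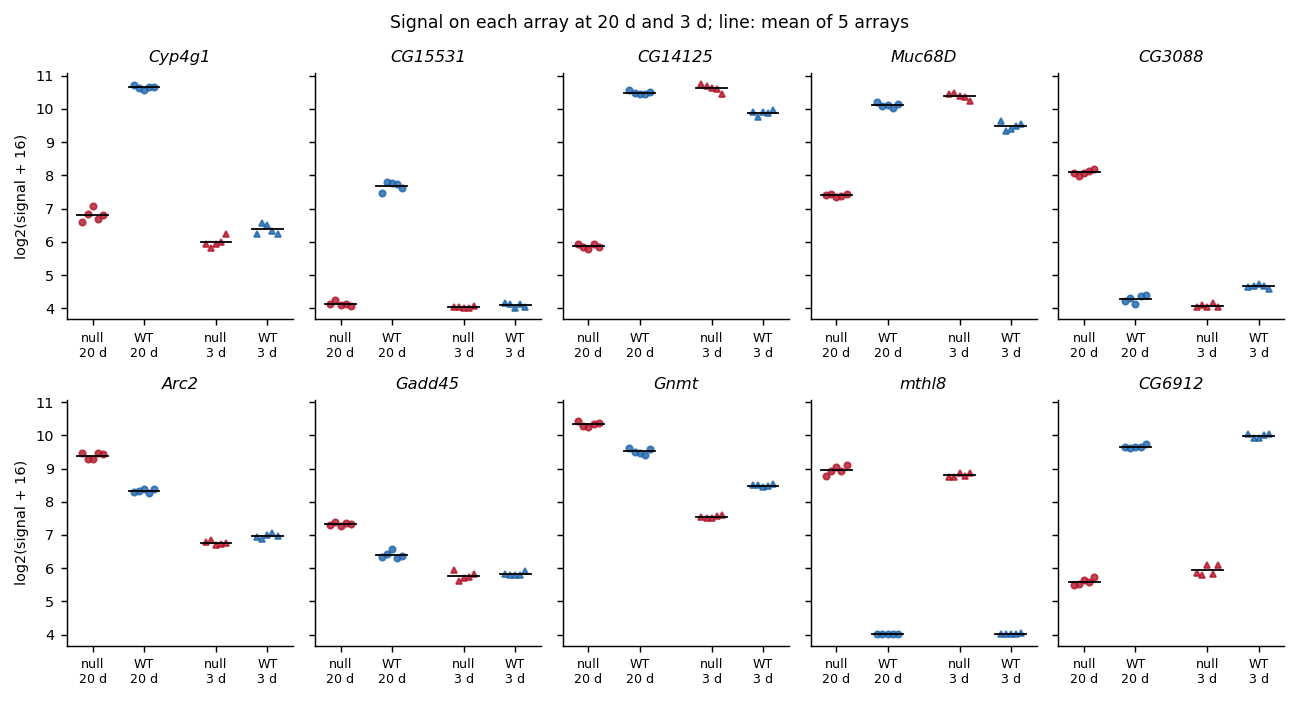
Signal of 10 genes on all 20 arrays, as log2(signal + 16). Circles are 20 d and triangles 3 d, miR-34 null in red and wild type (WT) in blue, and lines are means of 5 arrays. Cyp4g1 and CG15531 are high in 20 d wild type alone, CG14125 and Muc68D are low in 20 d null alone, CG3088 is high in 20 d null alone, and mthl8 and CG6912 separate the genotypes at both ages.

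mir-34 lies on chromosome arm 3R, and the large differences were unevenly spread over the arms. With genes ordered as in RefSeq's Release 6 plus ISO1 MT assembly, chromosome 3 held 112 of the 188 genes with a 2-fold difference, or 59.6%, against 44.4% of all genes with a probe set. The share of genes that differed 2-fold was 2.47% on 3L, 1.82% on 3R, 1.32% on 2R, 1.12% on X and 0.952% on 2L. Of the 62 genes that differed 2-fold in the same direction at both ages, 48 (77.4%) lay on chromosome 3, with 28 on 3L and 20 on 3R. Of the 148 with a called interaction 56.8% lay there, and of the 40 without one 70.0%. These shares are descriptions, since neighbouring genes are not independent. Calls of any size were more even, at 38.9% on 3L, 36.5% on 3R, 33.3% on 2R, 32.8% on 2L and 28.3% on X.

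Close to mir-34 the share of called genes was near that of the whole arm, 36.5%. Of the 33 genes with a probe set among the nearest 50 in order before mir-34, 36.4% were called and 2 differed 2-fold, and of the 34 among the nearest 50 after it 41.2% were called and none differed 2-fold. The 2 before it make 6.06%, against 1.82% on 3R, and rest on few genes. Farther out, among genes 51 to 200 in order, 46.6% of 116 before mir-34 and 34.5% of 110 after it were called, and among those from there to 500 the shares were 42.8% of 208 before it and 34.4% of 209 after it. Fmr1, the fragile X gene beside it, had signals of 1010.5, 971, 1044, 958 and 945 in null brains, against 754, 729, 739, 815 and 795 in wild-type brains by its bright probe set, while its dim probe set differed by 0.01 and was not called. CAH7 (-0.02 ± 0.044) and gammaSnap2 (-0.11 ± 0.047) were bright and not called. Npc2c, CG33631, CG33784, Alp13, knk, nerfin-2 and ATPsynepsilonL were below the median signal, and only ATPsynepsilonL was called (0.20 ± 0.076, adjusted p = 0.0492), a call lost on leaving out any array other than repeat 2 of null or repeat 3 of wild type (0.16 to 0.22), with means of at most 17.5 in null brains and 13.1 in wild-type brains.

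**Figure D5:**
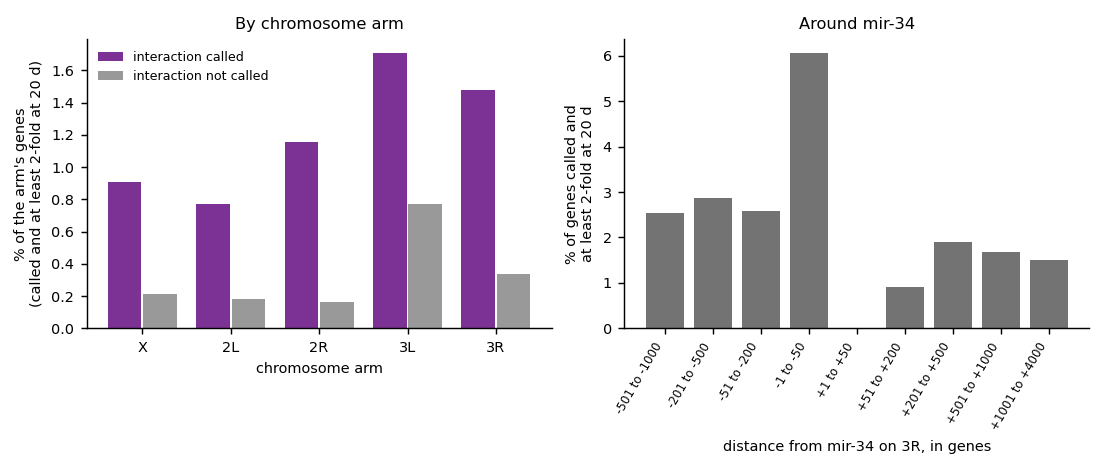
Share of genes called and at least 2-fold different at 20 d. On the left it is given by chromosome arm, in purple for genes with a called interaction with age and in grey for genes without one, and 3L has the highest bar of each kind. On the right it is given by distance from mir-34 on 3R in number of genes, where the bar of the nearest 50 genes before mir-34 rests on 2 of 33 genes.

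The brightest called genes differed little. Among the 10 with the highest mean signal at 20 d, IA-2, a tyrosine phosphatase family gene of secretory granules, averaged 2075 ± 95.1 in null brains, against 1869.6 ± 95.9 in wild-type brains (SD, n = 5 each), vir-1, a virus-induced gene, 1834 ± 135 in null brains, against 1413 ± 53.1 in wild-type brains, and the glial ATPase subunit gene nrv2 1718 ± 152 in null brains, against 1468 ± 186 in wild-type brains. CG15201 and fabp, a fatty acid-binding protein gene, were lower at -0.21 and -0.13, and CtsL1, a lysosomal cathepsin gene, CG7781, CG6329, Uhg4 and porin, the mitochondrial outer membrane channel gene, were higher by 0.26, 0.27, 0.20, 0.29 and 0.15. Without repeat 3 of wild type the calls of IA-2 (0.12), nrv2 (0.17) and porin (0.13) were lost. Of the other probe sets of IA-2, 1 differed by 0.30 and was called and 1 by 0.07 and was not. That of porin was also lost without repeat 1 of null (0.11), and that of fabp without repeat 5 of wild type (-0.11) or after median centring (-0.05).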

How the data were processed

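RNA from dissected fly brains was extracted with Trizol and labelled with an FL-Ovation biotin kit, per the labels' protocols, and hybridised to 20 arrays in 4 groups of 5, by genotype and age. The deposited values are linear intensity per probe set, described as MAS5 output per the labels. GCRMA is also named per the submitters' processing notes, with no role. The values of each array, with 2% of probe sets trimmed at each end, average close to 150, and no further normalization was applied here. Scan dates and other batches were not used here.

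The deposited intensity was turned into log2(signal + 16). After removal of control probe sets, limma 3.58.1 in R 4.3.3 fitted 4 group means to all 20 arrays (lmFit, then eBayes with trend and robust settings), with Benjamini-Hochberg adjustment over 18769 probe sets, 2-sided tests, an adjusted p threshold of 0.05 and no filter. Each gene was read from its probe set with the highest mean. Of the 18769 probe sets, 402 carried several gene symbols and 4720 none and were not assigned to genes. Of the 13647 with 1 symbol, 103 were not found in the RefSeq gene table and kept the platform's name. The median line used for dim genes was the median of the log2 values of all probe sets on all 20 arrays, 5.25, or a signal of 21.9. The mean log2 value of a gene over these arrays was set against it. On simulated data for the genotype comparison at 20 d, over 18769 probe sets, the test recovered 64% of changes of 0.25, 98% of 0.5 and 100% of 1 and of 2 on the log2 scale. Of the calls in the simulation 3.21% were false. It used independent normal noise, no shift in array scaling and far fewer changed probe sets than were called here. These rates therefore do not measure the errors among the real calls.

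Genes were named by a rule: the 15 highest and 15 lowest differences among called genes with groups that did not overlap, in each of 45 lists the 4 called members with the largest difference or the largest if none was called (only some of these are printed), the 10 brightest called genes, mir-34, Eip74EF, w and the 5 nearest genes on each side of mir-34, and the 5 highest and 5 lowest interactions. Other named genes were chosen after their values were seen. The comparison, the members and the gene lists were chosen with earlier results of these data known. Alternatives were other scalings, pseudocounts of 1 and 64, a filter on dim probe sets, ordinary eBayes, the 20 d arrays alone, the repeat number as a block, leaving out each array of 20 d, other probe sets of a gene, and list counts over brighter genes only.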

Additional observations from a re-analysis of the deposited data

Results flagged for a closer look

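For the signals of 206 named genes, the array medians and the distance of each array from its group, 416 groups of 5 arrays were checked for an array far from the other 4, and 22 had one, where chance gives about 1 in 20 groups. Of these, 6 lay in repeat 5 of null. In that array the signal was 113 for Mis12 (225 to 264 on the other null arrays), 11.9 for CG7910 (5.63 to 7.06), 268 for PGRP-LE (231 to 241), 268 for cwo (316 to 328), 173 for PPO1 (138 to 142) and 2.57 for Alp13 (0.0952 to 0.347). Repeat 4 of null stood apart with 307 for Pdh (285 to 290.3) and 47.2 for retinin (52.5 to 53.7). Repeat 1 of null did so with 371 for Mtk (391 to 398), 282 for Rel (318 to 329) and 41.4 for grass (53.4 to 58.1). Repeat 3 of wild type had 198 for TotC (188 to 191 on the other wild-type arrays), 1.36 for CG7299 (0.111 to 0.410), 763 for kay (645 to 668), 194 for Sr-CI (181 to 185) and 1407 for porin (1503 to 1524). Repeat 4 of wild type had 11.6 for CG8343 (7.03 to 7.96) and 55.4 for Dronc (71.7 to 74.3), repeat 5 of wild type 840.3 for CG6912 (777 to 788), and repeat 2 of wild type 409 for cry (426 to 432). Repeat 1 of wild type had 26.7 for alpha-Est2 (33.4 to 35.1) and 8.84 for nerfin-2 (12.2 to 13.01).

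The genotype difference at 20 d minus that at 3 d was positive, by a called interaction, for CG3088 (4.39), CG8343 (2.90), CG9377 (2.53), Obp83b (2.32), CG14419 (2.25), Gnmt (1.76), Arc2 (1.26), Gadd45 (1.00), Hsp27 (0.99) and SIFa (0.81) in log2 units. It was negative, by a called interaction, for CG14125 (-5.37), Jon99Fi (-5.22), CG5506 (-5.15), CG5399 (-5.0), CG11672 (-4.69), Muc68D (-3.61), Cyp4g1 (-3.46) and chp (-0.24). The causes of these differences were not tested.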

How the results depend on the processing

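The 5201 probe sets called at 20 d kept a count within 1.5 times under every alternative tried, and their division did not. Median centring gave 5115 higher and 1832 lower, against 2338 and 2863, and 5562 called interactions against 1910. A pseudocount of 1 gave 232 probe sets at least 2-fold higher and 488 lower, and a pseudocount of 64 gave 27 and 81, against 71 and 174. Leaving out each array in turn gave 4743 to 5082 calls, 2131 to 2342 higher and 2607 to 2867 lower, with 66 to 73 and 171 to 179 at least 2-fold. It gave 1763 to 1920 interactions, 677 to 726 called list members in place of 736, and 59.3% to 61.0% of 2-fold genes on chromosome 3. With the repeat number as a block, 5338 probe sets were called, 5080 of them shared, with 1964 interactions. The correlations of same-numbered arrays across genotypes ran from -0.075 to 0.24, and those of different-numbered arrays from -0.211 to 0.129. The highest were same-numbered, at 0.24 for repeat 1 and 0.169 for repeat 5. Whether the numbers pair the samples is therefore not settled. No named gene lost its call under the block. Of the 186 named genes called at 20 d, 167 kept direction and call under every alternative that gave them a value. The other 19 lost the call under at least 1, 4 of them under median centring and 7 when 1 array was left out, and none changed sign among called values. Of 1710 list counts recomputed, 1582 stayed within 1.5 times, and 45 of the 128 that did not were from median centring. Dim probe sets limit the falls and rises that can be read, since values near the floor have no order.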
